A study of Mus musculus with 6 samples.

Results

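The genes described here are 10 glutathione transferases of the mouse, namely Gsta4, Gstm1, Gstm2, Gstm5, Gstp1, Gstt1, Gsto1 and the microsomal Mgst1, Mgst2 and Mgst3. Their probes were taken by gene symbol from the platform annotation, which gave 10 of the 19057 named genes and 17 of the 45281 probes on the array, and 15 of these were above background on at least 3 of the 6 arrays and were tested. Every one of the 10 genes kept at least 1 tested probe. Each sample was the testis pair of 1 fetus, taken at embryonic day 14.5, and the strain background was mixed B6/CD1. The 3 overexpressors were Amh-cre;RosaNICD/+, in which a Cre recombinase expressed in Sertoli cells, which enclose and nurse the germ cells, switches on the intracellular domain of NOTCH1, a constantly active form of the receptor. The 3 controls were RosaNICD/+ littermates that carried the conditional allele without Amh-cre. Each of 3 dams gave 1 overexpressor and 1 control. All mice compared carried the conditional allele, and the Cre transgene was present in overexpressors alone, so its own effect and that of active NOTCH1 cannot be told apart.

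Cytosolic glutathione transferases join the tripeptide glutathione to reactive, electrophilic compounds and so make them soluble and exportable. They are grouped into classes such as alpha, mu, pi, theta and omega, and each class is encoded by clusters of closely related genes. The microsomal enzymes are unrelated membrane proteins of the MAPEG family, which also holds enzymes that make prostaglandins and leukotrienes. In the testis, transferases of the alpha and mu classes are known from steroid-making Leydig cells and from Sertoli cells.

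Whole testes were measured, so fewer cells of a type and less RNA per cell cannot be told apart. Between 43.0 and 44.8% of probes were above background on each array. Notch1 itself had log2 intensities of 8.97, 8.61 and 8.87 in overexpressors 1 to 3, against 8.32, 7.71 and 7.98 in controls 1 to 3. It is not known here whether its probe lies in the part made by the transgene, so these values do not check the labels. Over all 19889 tested probes 113 changed at an adjusted p under 0.05 in limma, which is 0.568%. Of the 15 glutathione transferase probes 0 passed that threshold, and 4 had an unadjusted p under 0.05, where 9.50% of all tested probes did.

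The largest difference among the 10 genes was in Mgst2, which encodes a microsomal enzyme that can make leukotriene C4. Its log2 intensities were 6.46, 6.28 and 7.06 in overexpressors 1 to 3, against 7.83, 7.67 and 7.87 in controls 1 to 3. All 3 overexpressors lay below all 3 controls, and overexpressor 3 was the nearest to them. Group means were 6.60 ± 0.41 in overexpressors and 7.79 ± 0.11 in controls (SD, n = 3 each). The log2 fold change was -1.19 ± 0.20 (SE) with a 95% interval of -1.66 to -0.72, and the adjusted p was 0.0541 in limma. Blocking on the dam left the difference the same, with a standard error of 0.15, and it passed (adjusted p = 0.0333), where 0.789% of all tested probes passed. Within the litters the differences were -1.37, -1.39 and -0.82 for dams 1 to 3. Without overexpressor 3 the log2 fold change was -1.42 and passed (adjusted p = 0.0130), while without any 1 of the other 5 arrays it was -1.25 to -1.03 and did not (adjusted p from 0.128 to 0.231), and when dim probes were kept in the fit it did not pass either (adjusted p = 0.154).

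The unprocessed signals of Mgst2 also separated the groups, though the order of arrays within a group differed. They were 201, 161 and 201 units in overexpressors 1 to 3, against 339, 280 and 279 units in controls 1 to 3. The ratio of overexpressor to control was 0.593, 0.577 and 0.721 in dams 1 to 3. These signals include the background of the array, which pulls ratios of a dim probe towards 1. Each value rested on 28 to 46 beads, whose standard error was 4.16 to 4.85% of the signal. With no background correction the log2 fold change was -0.74 and passed (adjusted p = 0.0222), and in the authors' processed table it was -0.76 (adjusted p = 0.0148). Only 1 probe represents the gene, so no second probe checks it.

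Marker lists of other cell types were set beside Mgst2. Of 7 germ cell markers 5 were tested and 0 passed. All 5 were lower in overexpressors, where 5577 of all 10999 tested genes were. By the probe that stands for each gene 1 had an unadjusted p under 0.05 in limma, where 9.50% of all tested probes did. When the litter was blocked 1 of these markers fell, Dnd1. Their median log2 fold change was -0.24. Nanos3 stood at -1.17 ± 0.54 and Dnd1 at -1.06 ± 0.24. Ddx4, Pou5f1 and Dazl stood at -0.24 ± 0.28, -0.16 ± 0.30 and -0.05 ± 0.26. Their dimmer probes stood at -0.75 ± 0.28, -0.32 ± 0.29 and -0.02 ± 0.32. The dimmer Ddx4 probe had an unadjusted p under 0.05 in limma (adjusted p = 0.440, or 0.0660 when blocked on dam). The summed linear intensity of the 5 genes was 3964 to 6927 units in overexpressors and 5311 to 8409 units in controls, which overlap. These ranges pool the dams and do not compare littermates. Within litters, Nanos3, Dnd1 and Pou5f1 were lower in the overexpressor of every dam, while Ddx4 and Dazl were each higher in 1 dam. Mael and Sycp3 were below background on all arrays. Of 6 mesonephric duct and epithelial markers 3 were tested, 0 passed (1 at an unadjusted p under 0.05) and the median log2 fold change was -0.03. The list differed through Cdh1, the E-cadherin gene, whose brighter probe stood at -0.93 ± 0.17 (adjusted p = 0.0764) and whose dim probe stood at 0.22 ± 0.25, while Pax8 and Cdh16, which were dim, stood at -0.03 ± 0.28 and -0.02 ± 0.29. The summed intensity of the 3 genes was 141.0 to 242.7 units in overexpressors and 263.3 to 296.2 units in controls. Epcam and Wnt9b of that list were below background on all arrays. Sertoli cell markers had 7 of 8 tested, 3 higher and 4 lower with a median of -0.10. At an unadjusted p under 0.05 in limma there were 3, Cst9 and Aard higher and Amh lower, where 9.50% of all tested probes were. Of these markers 1 rose, the cystatin gene Cst9 at 0.83 ± 0.13 (adjusted p = 0.0358, and 0.0917 to 0.169 with any 1 array left out). Their summed intensity was 34400 to 38550 units in overexpressors and 24050 to 28160 units in controls, a sum in which Cst9 and Aard, at 0.44 ± 0.12 (adjusted p = 0.283), are the brightest genes. Amh, the anti-Müllerian hormone gene whose promoter drives the Cre, stood at -1.24 ± 0.38 (adjusted p = 0.320, or 0.0749 when blocked on dam). The other Sertoli cell markers, Ptgds, Dhh, Fgf9 and Sox9, stood at -0.53 ± 0.27, -0.31 ± 0.21, -0.10 ± 0.14 and 0.15 ± 0.18. Dimmer probes of Fgf9 and Sox9 stood at 0.17 ± 0.22 and 0.03 ± 0.18. The part of these cell types in the Mgst2 difference was not tested.

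Among 10989 other genes, those whose log2 intensity over the 6 arrays was most like that of Mgst2 were Slc38a5, an amino acid transporter gene (Pearson's r = 0.998), Hsd17b3, whose product completes testosterone synthesis (0.991), Fam155a (0.989), Sel1l3 (0.989) and the glypican gene Gpc1 (0.988). The 6 arrays share 2 groups, and 60 genes had a correlation above 0.95, so the likeness is a description. Of these 5 genes Slc38a5 (-1.76 ± 0.24, adjusted p = 0.0184) and Sel1l3 (-2.47 ± 0.38, adjusted p = 0.0358) fell. Both calls were lost without overexpressor 1 or 2 or any 1 control, with adjusted p up to 0.111 and 0.164, and with no filter on dim probes (0.0780 and 0.145). Hsd17b3 stood at -1.0 ± 0.17 (adjusted p = 0.0541), Fam155a at -1.33 ± 0.28 (adjusted p = 0.122) and Gpc1 at -0.50 ± 0.13 (adjusted p = 0.249).

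The Mgst2 promoter is shown because this gene differed most and because its window holds the core letters bound by RBPJ, the DNA-binding partner of the NOTCH intracellular domain. The sequence is RefSeq's for GRCm38.p6, chr3:51660929-51661228 on the plus strand, from 250 bases before an annotated start of the gene to 50 bases after it. Capitals mark the match to TGGGAA, here on the opposite strand, whose first printed base lies 65 bases before that start.
Mgst2: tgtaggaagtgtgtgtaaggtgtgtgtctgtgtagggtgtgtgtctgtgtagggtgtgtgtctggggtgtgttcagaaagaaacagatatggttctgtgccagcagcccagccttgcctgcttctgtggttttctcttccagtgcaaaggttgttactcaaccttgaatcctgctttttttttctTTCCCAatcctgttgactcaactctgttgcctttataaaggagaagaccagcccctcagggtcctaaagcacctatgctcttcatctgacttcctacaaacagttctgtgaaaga
Among all 32851 promoter windows of that length, searched on both strands, 25.6% hold TGGGAA. Windows were found for 9 of the 10 genes, 11 windows in all, and 2 of these hold it. The other one is that of Gstm2, whose level was close in both groups. A match of letters shows no binding.

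**Figure D1:**
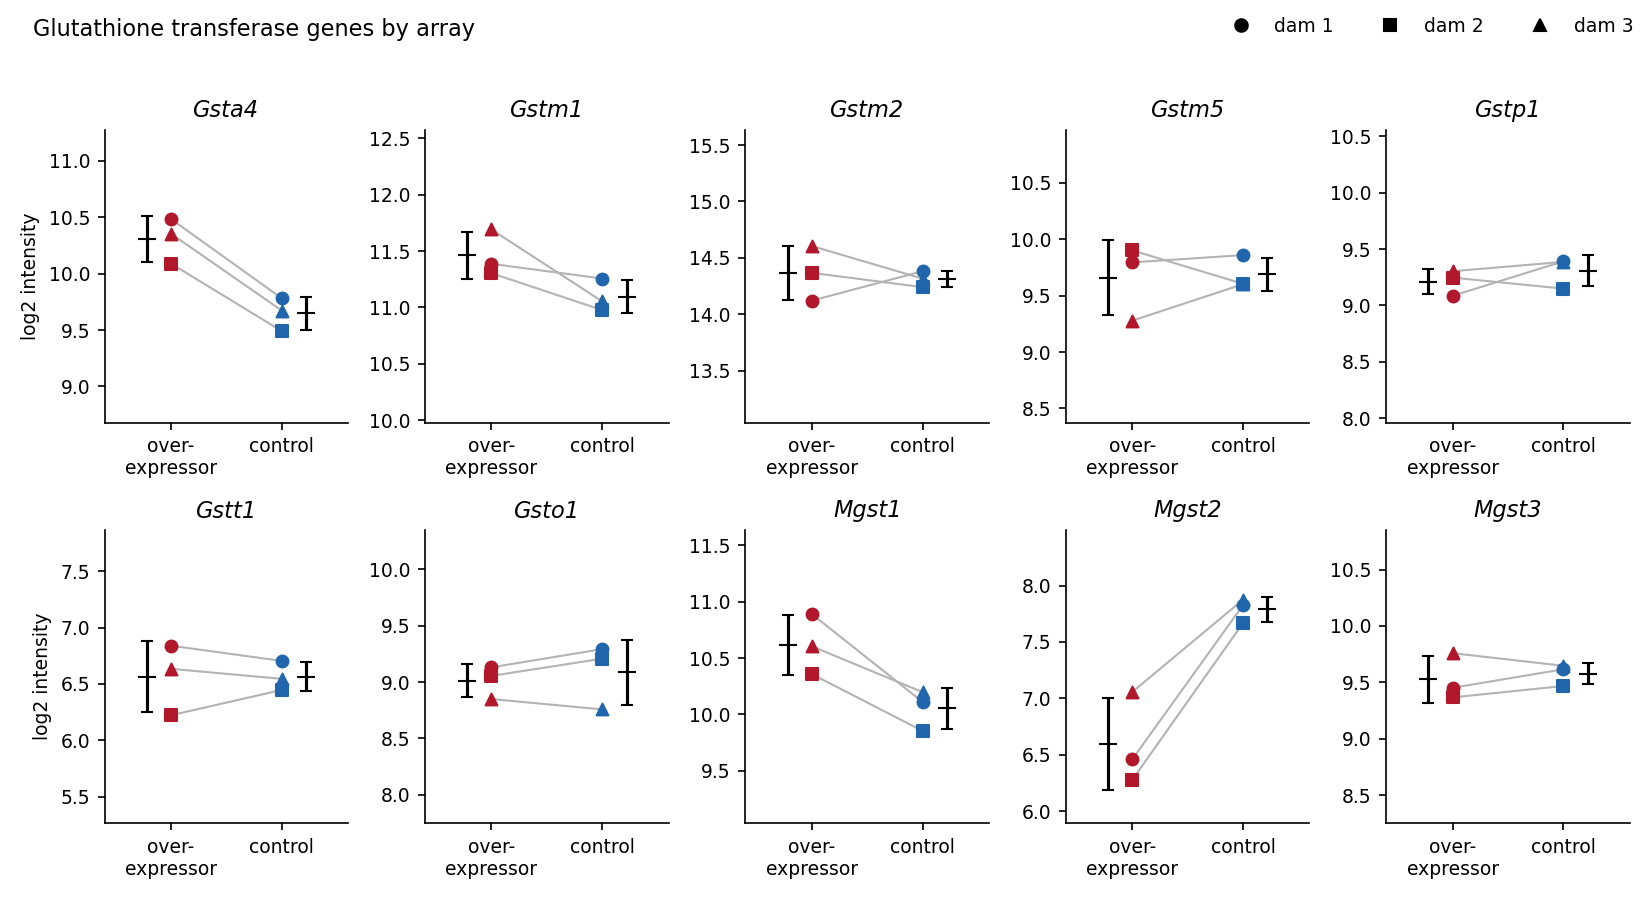
Log2 intensity (vertical axes, each spanning the same range) of the probe that stands for each of the 10 genes, in overexpressors (left, red) and littermate controls (right, blue). Grey lines join littermates, marker shapes give the dam, and black bars are mean ± SD (n = 3 each). Mgst2 was lower in all 3 overexpressors, while Gsta4, Mgst1 and Gstm1 were higher in all 3, and the other 6 genes overlap between groups.

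Gsta4, an alpha class enzyme that detoxifies 4-hydroxynonenal, a product of lipid peroxidation, was the member with the next smallest p. Its log2 intensities were 10.48, 10.09 and 10.35 in overexpressors 1 to 3, against 9.78, 9.49 and 9.67 in controls 1 to 3. Every overexpressor exceeded every control. The log2 fold change was 0.66 ± 0.15 with a 95% interval of 0.31 to 1.01, and it did not pass (adjusted p = 0.170, or 0.0723 when blocked on dam). Litter differences were close to each other at 0.70, 0.60 and 0.68 for dams 1 to 3. Unprocessed signals of Gsta4 were 1806, 1172 and 1291 units in overexpressors 1 to 3 and 1043, 784 and 766 units in controls 1 to 3, with ratios of 1.732, 1.496 and 1.686. In the authors' processed table the gene stood at 0.62 ± 0.12 and passed (adjusted p = 0.0486).

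The gene lies beside Gsta1 in the gene table, and the remaining alpha class genes on the array were described with it. All 4 tested alpha class genes had a higher mean in overexpressors, where 5422 of all 10999 tested genes did, and 1 of the 4 rose. That gene was Gsta3, an alpha class enzyme whose human counterpart also isomerises steroid precursors. Gsta3 had log2 intensities of 10.95, 10.77 and 10.91 in overexpressors 1 to 3, against 10.08, 9.78 and 9.97 in controls 1 to 3. The groups lay well apart, and the log2 fold change was 0.93 ± 0.14 (adjusted p = 0.0304, or 0.0271 when blocked on dam). The call was lost whichever array was left out, with adjusted p from 0.0648 without overexpressor 2 to 0.160 without overexpressor 1, while the log2 fold change stayed between 0.85 and 1.0. A dimmer Gsta3 probe, above background on 2 of 3 overexpressor and 1 of 3 control arrays, stood at 0.27 ± 0.23 (adjusted p = 0.791). Gsta2 stood at 0.62 ± 0.20 (adjusted p = 0.363) and Gsta1 at 0.53 ± 0.28 (adjusted p = 0.626), and both were dimmer than Gsta3. The groups overlapped in Gsta1, whose difference within dam 2 was -0.02. Genes of 1 class resemble each other in sequence, and whether their probes share signal was not tested.

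Mgst1, a microsomal transferase and peroxidase of the endoplasmic reticulum and the outer mitochondrial membrane, was measured by a bright and a dim probe. The bright probe had log2 intensities of 10.89, 10.36 and 10.60 in overexpressors 1 to 3, against 10.11, 9.85 and 10.20 in controls 1 to 3. Its groups did not overlap, with overexpressor 1 the highest. The log2 fold change was 0.56 ± 0.17 with a 95% interval of 0.17 to 0.96, and it did not pass (adjusted p = 0.331, or 0.142 when blocked on dam). Within litters the differences were 0.78, 0.50 and 0.41 for dams 1 to 3. Unprocessed signals of the bright probe were 2332, 1388 and 1509 units in overexpressors 1 to 3 and 1281, 980 and 1063 units in controls 1 to 3. The dim probe had log2 intensities of 7.81, 7.22 and 7.21 in overexpressors 1 to 3, against 7.28, 6.99 and 7.27 in controls 1 to 3. These overlap, and the log2 fold change was 0.23 ± 0.19 (adjusted p = 0.779).

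The Mgst1 promoter is shown because of the windows found for genes with separated groups it alone holds the core of the antioxidant response element, TGACNNNGC, which NRF2, the transcription factor of oxidative stress, binds. It is RefSeq's GRCm38.p6 sequence at chr6:138140277-138140576 on the plus strand, again 250 bases before to 50 after an annotated start. Capitals mark the match on the opposite strand, whose first printed base is 56 bases before that start.
Mgst1: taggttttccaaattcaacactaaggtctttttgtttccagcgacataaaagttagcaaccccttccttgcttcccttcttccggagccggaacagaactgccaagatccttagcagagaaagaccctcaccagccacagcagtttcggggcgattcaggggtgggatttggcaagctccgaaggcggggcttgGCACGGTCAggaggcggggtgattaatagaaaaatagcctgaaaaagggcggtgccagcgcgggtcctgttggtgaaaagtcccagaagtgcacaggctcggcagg
In all promoter windows 12.4% hold these letters on either strand, and 2 of the 11 windows of the genes do. The other is that of Gstm5, whose groups overlapped. A second annotated start of Mgst1 has a window without a match to either motif.

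Of the mu class, Gstm1, Gstm2 and Gstm5 lie in 1 gene cluster on chromosome 3, with Gstm1 next to Gstm2. Gstm1, a mu class enzyme that conjugates a wide range of electrophiles, had log2 intensities of 11.39, 11.30 and 11.69 in overexpressors 1 to 3, against 11.26, 10.98 and 11.05 in controls 1 to 3. The groups did not overlap, but overexpressor 2 and control 1 differed by little. The log2 fold change was 0.37 ± 0.15 with a 95% interval of 0.01 to 0.72, and it did not pass (adjusted p = 0.508, or 0.309 when blocked on dam). Litter differences spread from 0.13 in dam 1 and 0.33 in dam 2 to 0.64 in dam 3. Unprocessed signals of Gstm1 were 3280, 2561 and 3169 units in overexpressors 1 to 3 and 2697, 2040 and 1904 units in controls 1 to 3. In these unprocessed signals the groups overlapped, with control 1 above overexpressor 2. A second Gstm1 probe was below background on all 6 arrays and was not tested.

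Gstm2, its neighbour, was measured by 3 tested probes. The brightest had log2 intensities of 14.12, 14.37 and 14.60 in overexpressors 1 to 3, against 14.38, 14.24 and 14.31 in controls 1 to 3. Overexpressors spanned both sides of the controls. The log2 fold change was 0.05 ± 0.15 with a 95% interval of -0.30 to 0.41 (adjusted p = 0.948). The other probes stood at 0.05 ± 0.12 and -0.04 ± 0.15, and their 95% intervals reached from -0.22 to 0.33 and from -0.39 to 0.31. Gstm5, a further mu class enzyme, had log2 intensities of 9.79, 9.90 and 9.28 in overexpressors 1 to 3, against 9.86, 9.61 and 9.60 in controls 1 to 3. Overexpressor 3 was the lowest of the 6 and overexpressor 2 the highest. Its log2 fold change was -0.03 ± 0.19, with a 95% interval of -0.46 to 0.40. A long noncoding RNA gene overlaps Gstm5 in the gene table, and whether its RNA reaches the probe is not known here.

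The 5 genes whose log2 intensity over the 6 arrays was most like that of Gstm1 were Catsperz (Pearson's r = 0.995), Atp9b (0.988), 2310075K07Rik (0.987), Adam15 (0.985) and Kcne1l (0.983), and 39 of 10989 genes had a correlation above 0.95. Their log2 fold changes were 0.19 to 0.37 and 0 of the 5 passed in limma, with adjusted p from 0.563 to 0.734. Fetal Leydig cell markers, 6 of 7 tested, were divided into 3 higher and 3 lower, and 0 passed, also at an unadjusted p under 0.05. Their summed intensity was 31950 to 38520 units in overexpressors and 35750 to 38320 units in controls, and Fdx1 was below background on all arrays. Cyp11a1, the first enzyme of steroid synthesis, stood at 0.21 ± 0.17, Hsd3b1, the next, at 0.18 ± 0.22, the hormone gene Insl3 at 0.07 ± 0.15, the high-density lipoprotein receptor gene Scarb1 at -0.03 ± 0.17, the androgen synthesis gene Cyp17a1 at -0.08 ± 0.13 and the cholesterol carrier gene Star at -0.30 ± 0.21.

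**Figure D2:**
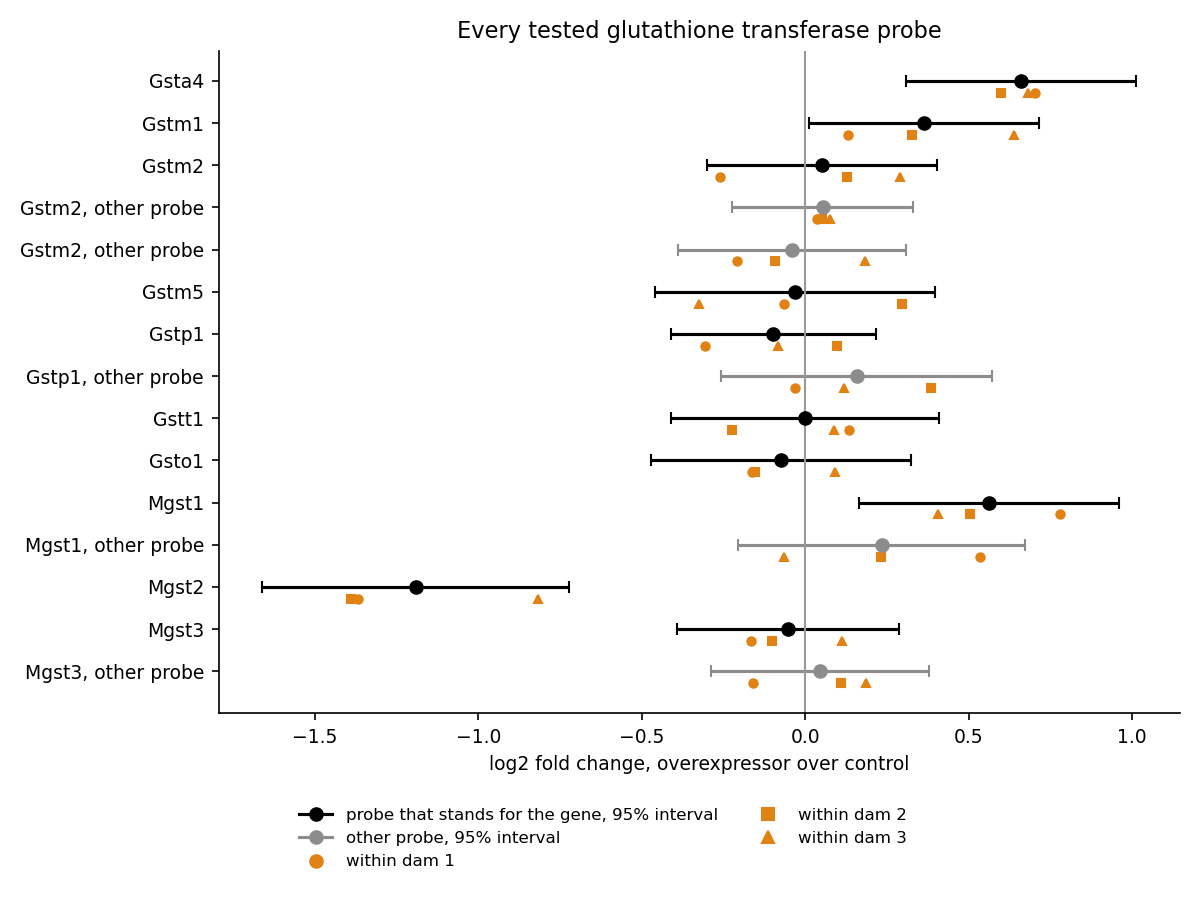
Log2 fold change of overexpressor over control (horizontal axis) for the 15 tested probes, with 95% intervals from limma, black for the probe that stands for a gene and grey for its other probes. Orange markers are the differences within each dam. The Mgst2 interval of -1.66 to -0.72 lies wholly below 0, those of Gsta4, Gstm1 and the bright Mgst1 probe lie above 0, and the other 11 include 0.

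The other members differed little between the groups. Gstp1, the pi class enzyme, had log2 intensities of 9.09, 9.25 and 9.30 in overexpressors 1 to 3, against 9.39, 9.15 and 9.39 in controls 1 to 3. Its log2 fold change was -0.10 ± 0.14 with a 95% interval of -0.41 to 0.22 (adjusted p = 0.883). A second Gstp1 probe of like brightness stood at 0.16 ± 0.18, so the probes differ in sign within their intervals. The dimmest Gstp1 probe was above background on 2 of 3 overexpressor arrays and 0 of 3 control arrays and was not tested. Its mean log2 intensities were 5.06 in overexpressors and 4.73 in controls, and no fold is given.

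Gstt1, a theta class enzyme that acts on small halogenated compounds, had log2 intensities of 6.84, 6.22 and 6.63 in overexpressors 1 to 3, against 6.70, 6.45 and 6.55 in controls 1 to 3. The means were 6.57 in overexpressors and 6.57 in controls, and the 95% interval of the log2 fold change was -0.41 to 0.41. Gsto1, an omega class enzyme that also reduces dehydroascorbate, had log2 intensities of 9.13, 9.05 and 8.85 in overexpressors 1 to 3, against 9.29, 9.21 and 8.76 in controls 1 to 3. Both groups had their lowest value in dam 3. The log2 fold change was -0.07 ± 0.17, with a 95% interval of -0.47 to 0.32. Mgst3, a further microsomal enzyme with peroxidase activity, had log2 intensities of 9.45, 9.37 and 9.76 in overexpressors 1 to 3, against 9.62, 9.47 and 9.65 in controls 1 to 3. The Mgst3 log2 fold change was -0.05 ± 0.15 for that probe and 0.05 ± 0.15 for a dimmer one, and neither passed.

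Over the 10 genes, 4 were higher and 6 lower in overexpressors, with a median log2 fold change of -0.016, against a median of -0.0032 over all 10999 tested genes. Of the 10 genes 6 lay within 0.20 of 0, or 60.0%, where 66.0% of all tested genes did. In 4 of the 10 genes the groups did not overlap, 3 with all overexpressors higher and 1 with all lower, where 14.9% of all tested genes did not overlap, 7.93% higher and 7.0% lower. Over the 6 arrays the log2 intensities of Gsta4 and Mgst1 had the highest correlation of any pair of these genes (Pearson's r = 0.968). Gsta4 with Gstm1 came next (0.861). Gsta4, Mgst1 and Gstm1 ran opposite to Mgst2, with correlations of -0.782, -0.713 and -0.522. The arrays fall into 2 groups that differ in these genes, so the correlations describe these arrays only.

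The rest of the family was set beside the 10 genes by class. Of 15 other tested glutathione transferase and MAPEG genes 1 rose, Gsta3, 0 fell and 14 did not pass, with a median of 0.12. Of these genes 11 were higher and 4 lower, where 5422 of all 10999 tested genes were higher. Gstm3, Gstt4, Hpgds and Ltc4s were below background on all arrays, the last being the leukotriene C4 synthase gene of the family of Mgst2. Alox5ap, the gene of the protein that presents arachidonic acid to 5-lipoxygenase, stood at 0.17 ± 0.14. Its other probe, of like brightness, stood at -0.10 ± 0.13, so the probes differ in sign. Ptges, a prostaglandin E synthase gene, stood at 0.12 ± 0.15. Alox5ap and Ptges were singled out after their values were seen. Of the 5 tested MAPEG genes, Mgst2 alone had an interval below 0 in limma.

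**Figure D3:**
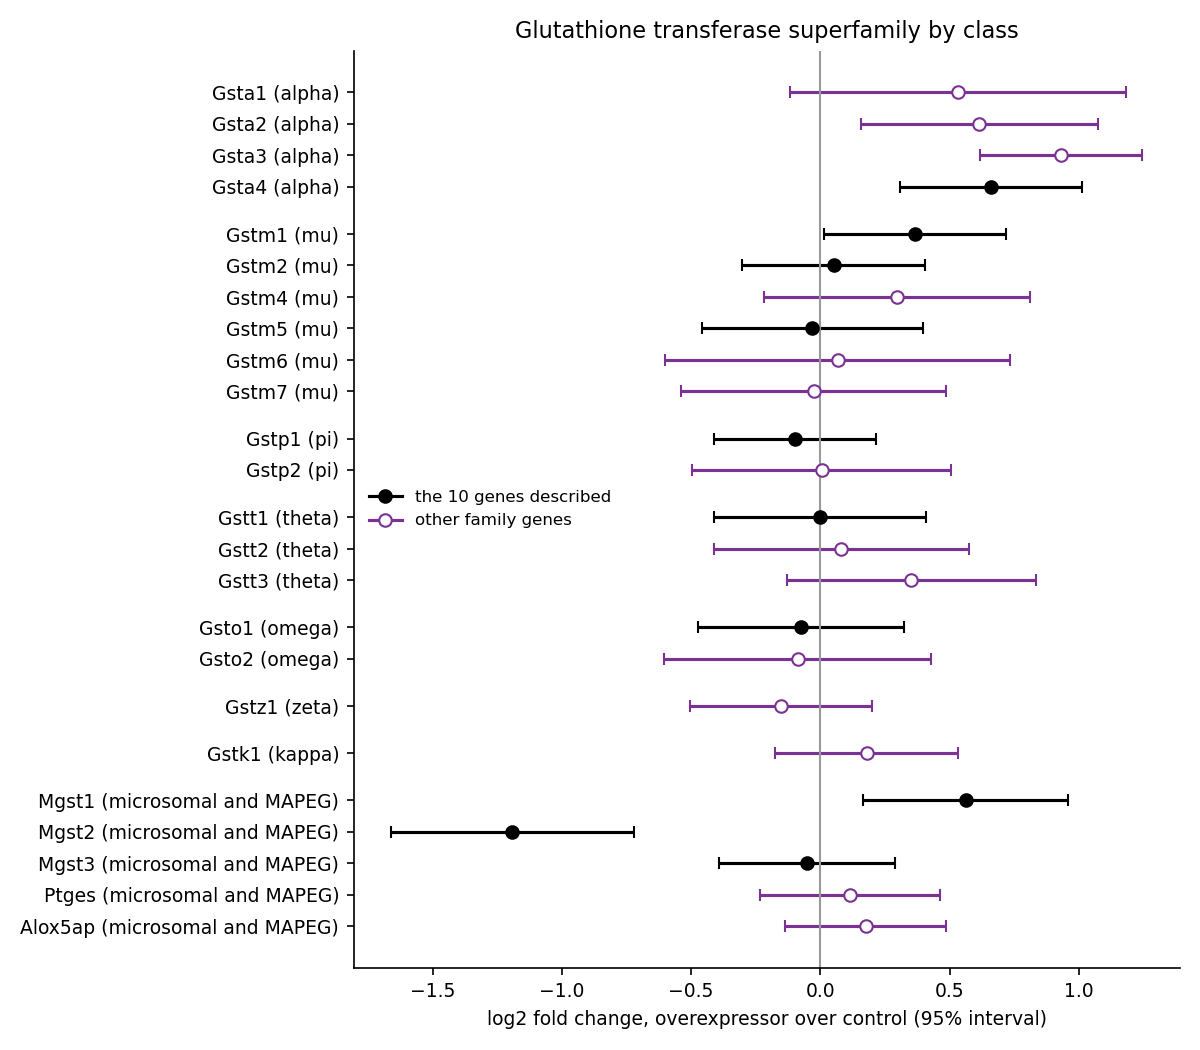
Log2 fold change of overexpressor over control with 95% intervals (horizontal axis) for tested transferase genes by class and for MAPEG genes, black for the 10 genes described and open purple for other family genes. The 4 alpha class genes stood between 0.53 and 0.93, and Mgst2 at -1.19.

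Genes that make, recycle and use glutathione were compared as lists. Of 9 tested genes of glutathione synthesis and breakdown 0 rose, 0 fell and 9 did not pass, with a median log2 fold change of 0.04. Chac1, which degrades glutathione, stood at 0.64 ± 0.23 (adjusted p = 0.431). It was dim, above background on 3 of 3 overexpressor arrays but 1 of 3 control arrays. Gclc, the catalytic subunit of the rate-limiting enzyme of synthesis, stood at 0.22 ± 0.21, above background on 2 of 3 control arrays. The 5-oxoprolinase gene Oplah stood at 0.20 ± 0.13. Of 11 glutathione peroxidase and redox cycling genes 0 rose, 0 fell and 11 did not pass, with a median of -0.02. The glutaredoxin gene Glrx stood at -0.25 ± 0.14, Gpx4, which protects membrane lipids from peroxidation, at 0.25 ± 0.14, and Gpx2 at -0.26 ± 0.23. By the probe that stands for each gene, 1 synthesis gene and 0 peroxidase genes had an unadjusted p under 0.05 in limma. Among all tested probes 9.50% were under that value. A dimmer Gpx4 probe, at 0.50 ± 0.21, and a dimmer Glrx3 probe, at -0.41 ± 0.18, were under it (adjusted p = 0.511 and 0.516).

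NRF2 controls many detoxification genes, and KEAP1 holds it in check. Of 14 tested NRF2 regulators and targets 0 rose, 0 fell and 14 did not pass in limma, with a median of 0.06. Of these genes 10 were higher and 4 lower, where 5422 of all 10999 tested genes were higher. At an unadjusted p under 0.05 in limma there was 1 gene, where 9.50% of all tested probes were. That gene was Abcc4, an exporter of organic anions, at -0.96 ± 0.20 (adjusted p = 0.121, or 0.0962 when blocked on dam). Its log2 intensities were 6.73, 6.22 and 6.22 in overexpressors 1 to 3, against 7.31, 7.65 and 7.07 in controls 1 to 3, without overlap. The carbonyl reductase gene Cbr3 stood at -0.54 ± 0.25 and the quinone reductase gene Nqo1 at 0.34 ± 0.20. Srxn1 stood at 0.08 ± 0.22 by its brighter probe. Its dimmer probe, at 0.45 ± 0.16, had an unadjusted p under 0.05 in limma (adjusted p = 0.429). Nfe2l2, which encodes NRF2, stood at 0.02 ± 0.15 and Keap1 at 0.09 ± 0.15, both added to the named genes after their values were seen.

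**Figure D4:**
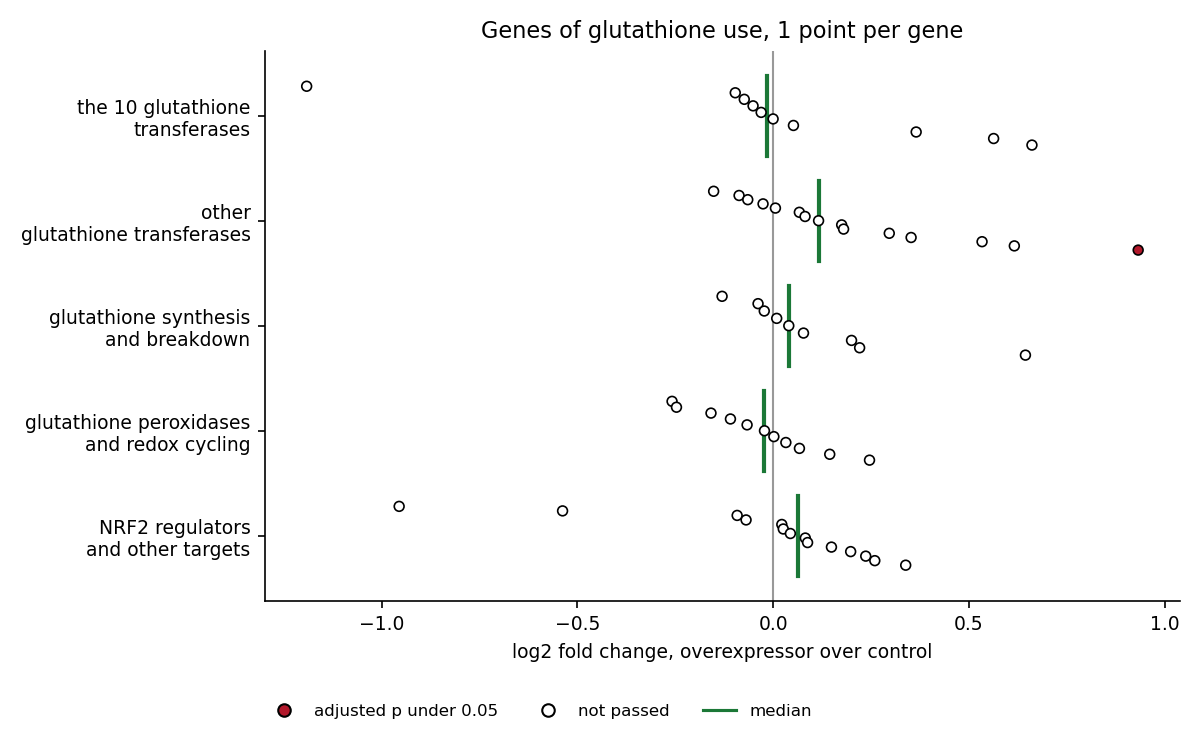
Log2 fold change of overexpressor over control (horizontal axis) for the 10 glutathione transferases and 4 lists of related genes, 1 point per gene, filled where the adjusted p was under 0.05. Green lines are medians, from -0.02 to 0.12, and Gsta3 is the one filled point.

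**Figure D5:**
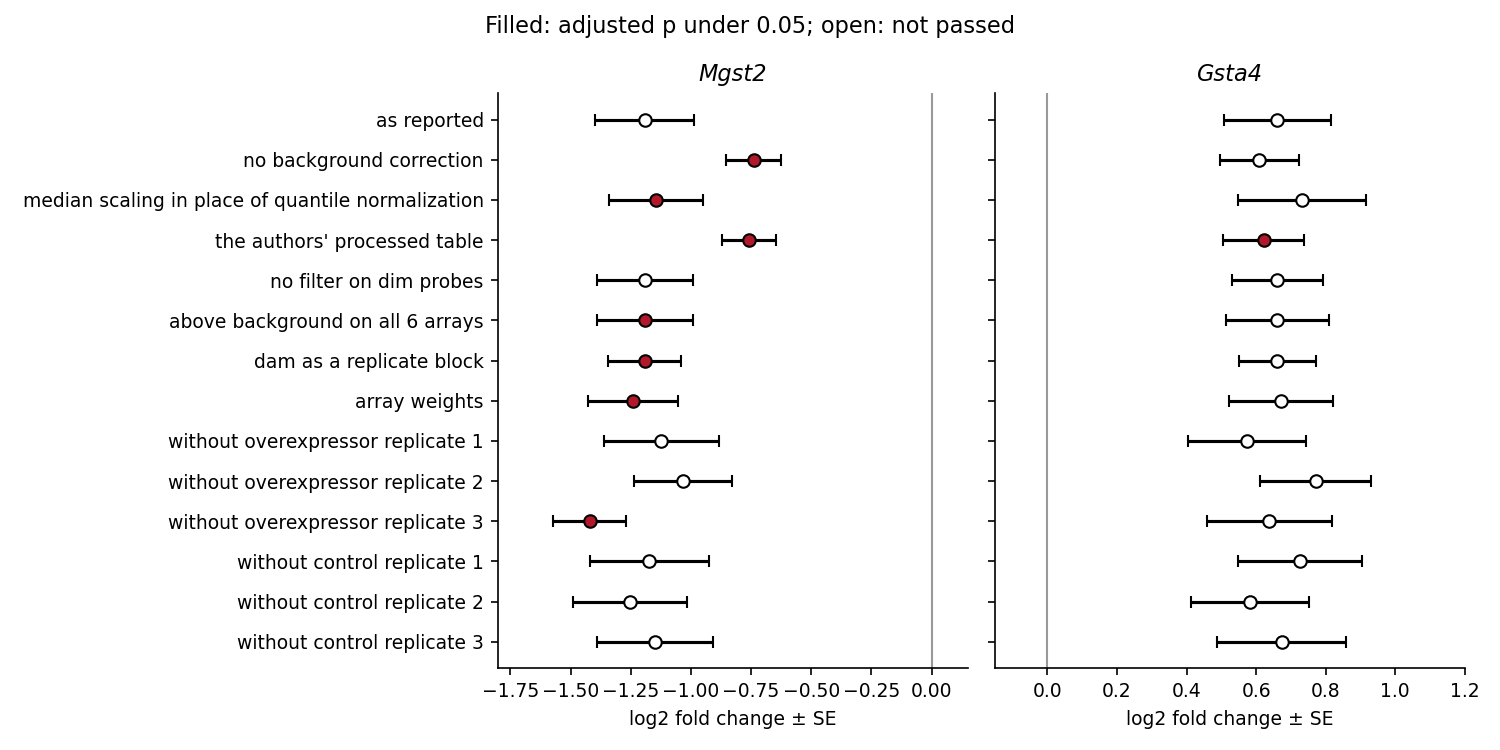
Log2 fold change ± SE (horizontal axes) of Mgst2 and Gsta4 as reported and under 13 alternative settings (rows), filled where the adjusted p was under 0.05. Mgst2 stayed between -1.42 and -0.74 and passed in 7 of the 13 alternatives, and Gsta4 stayed between 0.57 and 0.77 and passed in 1.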

How the data were processed

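Biotin-labelled total RNA of each testis pair was read on its own Illumina BeadChip array, per the labels' protocols, and GenomeStudio 2010.3 was used, per the submitters' processing notes. Per the file headers, the deposited signal is the mean bead intensity of a probe on a linear scale, neither normalized nor background-corrected, with a deposited count of beads, the bead standard error as a signal, and a detection p-value against the negative controls. The authors' processed table holds the same intensity values multiplied by 1 factor per array (0.855 to 1.15). Scaling is to a common mean of 387.2, values are linear and not centred, and column medians were 105.0, 110.9 and 113.3 in overexpressors 1 to 3 and 108.1, 112.0 and 117.5 in controls 1 to 3.

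The neqc function of limma 3.58.1 (R 4.3.3) corrected the background from the detection p-values, added an offset of 16, normalized by quantiles and took log2. Above background means a detection p under 0.05, and a probe was tested if so on at least 3 of 6 arrays. The moderated test of limma, two-sided, compared the groups, with Benjamini-Hochberg adjustment over all 19889 tested probes and a threshold of 0.05. It was checked on simulated data without a litter effect, so that check does not cover the correlation of littermates. A gene with several tested probes is represented by the brightest on average over the arrays. Symbols were updated by Entrez identifier to the GRCm38.p6 table, which matched 34807 of 34885 probes with 1 symbol, while 18 probes have several symbols and 10378 none. The files name no build, so that table gave names and neighbours only.

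Dams link littermates in the labels. Deviations from group means correlated at 0.252, 0.426 and 0.304 for the 3 litters. The fit has no litter term, and the dam as a block is an alternative. Members, lists, tests and alternatives were chosen with earlier results of these data known. Named are all 10 members, of each list of glutathione genes those past the threshold and the 3 with the smallest p, the Leydig cell markers, and the 5 genes most like Gstm1 and the member with the smallest p. Genes of the germ cell, Sertoli cell and epithelial marker lists were named outside this rule, as were Glrx3 and Srxn1. Marker lists of interstitial and myoid, endothelial, macrophage and erythroid cells had 0 of 7, 0 of 4, 0 of 5 and 0 of 5 tested genes past the threshold. At an unadjusted p under 0.05 there were 0, 1, 1 and 0, by the probe that stands for each gene. Among all tested probes 9.50% had an unadjusted p under 0.05 in limma.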

Additional observations from a re-analysis of the deposited data

How the results depend on the processing

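Directions of Gsta4, Mgst1, Gstm1, Gstp1 and Mgst2 held for their standing probes under all 13 alternatives. The count of changed probes was 67 with no filter on dim probes and 32 to 101 with 1 array left out, against 113. Under the remaining alternatives it was 114 to 157. Leaving out overexpressor 1 gave 32 and overexpressor 2 gave 68, and leaving out controls 1 to 3 gave 42, 52 and 63. Of the transferase probes 2 passed in the authors' processed table (Mgst2 and Gsta4). Mgst2 alone, 1 probe, passed with no background correction, with median scaling (adjusted p = 0.0367), with the filter on all 6 arrays (adjusted p = 0.0377), under a dam block (1 probe, adjusted p = 0.0333) and with array weights (adjusted p = 0.0251). With 1 array left out 0 or 1 passed, the 1 being Mgst2 without overexpressor 3, and its adjusted p otherwise reached 0.231. The dam as a block changed no other call among the 10 genes.

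Members near 0 changed sign. Gstt1 stood at 0.0045 with no background correction, 0.040 with median scaling and 0.033 with array weights, against -0.00023. Gstm5 stood at 0.034 and Mgst3 at 0.016 with median scaling, and Gstm2 at -0.020 with array weights. Other probes gave -0.040 for Gstm2, 0.16 for Gstp1 and 0.046 for Mgst3. With 1 array left out the ranges were -0.069 to 0.17 for Gstm2, -0.15 to 0.16 for Gstm5, -0.24 to 0.029 for Gsto1, -0.14 to 0.17 for Gstt1 and -0.17 to 0.028 for Mgst3. The causes were not tested. The number of arrays limits the precision, and the Mgst2 difference was -0.74 with no background correction, against -1.19. Alternatives for Gsta3, Cst9, Slc38a5 and Sel1l3 were chosen after seeing the data.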

Other observations

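The protein-coding genes on either side of Mgst2 in the gene table are Setd7, a lysine methyltransferase gene, and Maml3, which encodes a coactivator of the NOTCH complex. They were looked at after the Mgst2 values were seen. The brightest Setd7 probe stood at 0.08 ± 0.14 on the log2 scale (adjusted p = 0.915) and its other probes at -0.28 ± 0.14 and -0.18 ± 0.16. Maml3 stood at -0.24 ± 0.24 (adjusted p = 0.824), above background on 2 of 3 overexpressor and 2 of 3 control arrays. None of these probes passed in limma, without or with the dam as a block. A pseudogene overlaps Mgst2 in the same table, and whether its RNA reaches the probe is not known here.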
